A study of Mus musculus with 6 samples.

Results

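The genes described here encode 38 enzymes and regulators of central carbon metabolism, chosen by symbol: 14 of glycolysis and lactate formation, 2 of the pyruvate dehydrogenase step, 6 of the pentose phosphate pathway, 11 of the TCA cycle with anaplerosis, and 5 of serine and glycine synthesis. Of these 38 genes, 33 had a probe set of their own symbol among the 12393 genes named on the array, and 32 were among the 7644 genes tested. They were measured in KPR4, KPR5 and KPR8, mouse lines derived from lung adenocarcinoma on the strain background C57/B6-129SvJae. Each line was treated with 4-OH tamoxifen at 250 nM for 24 h or with its solvent, EtOH (ethanol), and each of the 6 resulting RNA samples was hybridised to 1 array. Per the labels, tamoxifen reactivates p53 in these cells, so that the ethanol arrays show the lines without it and the tamoxifen arrays the lines with it. The labels give neither the alleles of the lines nor how they were isolated. The comparison asks which steps of carbon metabolism change in transcript level with the drug that restores p53. No array shows the drug in cells where p53 is not restored. Effects of p53 and other effects of the drug therefore cannot be told apart.

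Glycolysis splits glucose to pyruvate, which lactate dehydrogenase reduces to lactate or pyruvate dehydrogenase passes to the TCA cycle. Glucose 6-phosphate can instead enter the pentose phosphate pathway, which yields NADPH and ribose. From the glycolytic intermediate 3-phosphoglycerate, PHGDH, PSAT1 and PSPH make serine, and SHMT1 in the cytosol and SHMT2 in mitochondria convert serine to glycine and load the folate cycle with 1-carbon units. Proliferating tumour cells draw on all of these routes, and p53 is known to regulate several of them.

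The values are log2 expression per probe set after GCRMA, and 27 probe sets for Bacillus control transcripts, absent from mouse cells, lay between 1.13 and 2.84. The array medians were 4.56 to 4.63, and 57.2% to 57.6% of probe sets reached log2 4. The annotation used had no probe set with the symbol of the p53 gene alone, so the labels were checked on 3 targets of p53. Cdkn1a (p21) rose by 4.63 ± 0.27 (SE, n = 3 lines), Mdm2 by 2.94 ± 0.13 and Ccng1 by 2.86 ± 0.11 in limma, with adjusted p of 1.8e-08, 6.9e-10 and 1.9e-10. All 6 epithelial markers examined passed the expression filter, against 1 of 6 lung epithelial, 3 of 7 fibroblast, 0 of 4 endothelial and 2 of 5 named leukocyte markers. The lung markers Nkx2-1, Scgb1a1, Sftpa1 and Sftpb were at the level of the Bacillus controls on every array, as were the leukocyte markers Ptprc, Itgam and Lyz2. Of the epithelial markers Cldn4 rose by 0.89, Cdh1 rose by 0.30 and Epcam fell by 0.37, and the other 3 were not called. Of the leukocyte markers past the filter, Cd68 rose by 1.02 and Cd3e changed by -0.15, which was not called. The summed leukocyte markers, Cd68 among them, lay at log2 5.36 to 5.49 with ethanol and 5.63 to 5.88 with the drug. The part of these marker changes in any result was not tested. In such bulk RNA, fewer cells of a type and less RNA per cell cannot be told apart. The lines are the replicates, and the p-values set a mean change against the spread of the response between 3 lines. In limma that spread is pooled with the variance of other genes (2 residual and 12.9 prior degrees of freedom). A gene whose lines differ widely, such as Shmt2 below, can therefore have a smaller standard error than its own 3 changes give. Since each line had a single array per treatment, whether the lines respond differently cannot be tested.

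Serine and glycine synthesis was the pathway with the most falls: 4 of its 5 genes fell with 4-OH tamoxifen, 0 rose, and the remaining one, Psat1, was not called on its brightest probe set. Across all 32 measured genes, 8 fell and 2 rose, and 22 were not called at a Benjamini-Hochberg adjusted p of 0.05. Over all 7644 genes, 19.5% were called, 10.5% higher and 8.94% lower, against 31.3% of the 32 genes called, 25.0% lower and 6.25% higher. The falls lay in serine and glycine synthesis (4), glycolysis (Hk2 and Ldha) and the TCA cycle (Idh2 and Mdh2), and the rises were Hk1 and Idh1. The median change of the 32 was -0.19 on the log2 scale, against 0.00 for all genes tested, and the changes ran from -0.91 to 0.56, which makes them small beside those of the p53 targets above. All 10 calls rest on comparing the arrays within a line: without a term for the line limma called 0 of the 32, with 1 higher and 2 lower at an unadjusted p under 0.05. With a line left out, limma called 4 lower and 0 higher without KPR4 (2 higher at an unadjusted p under 0.05), 6 and 1 without KPR5, and 3 and 2 without KPR8.

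**Figure D1:**
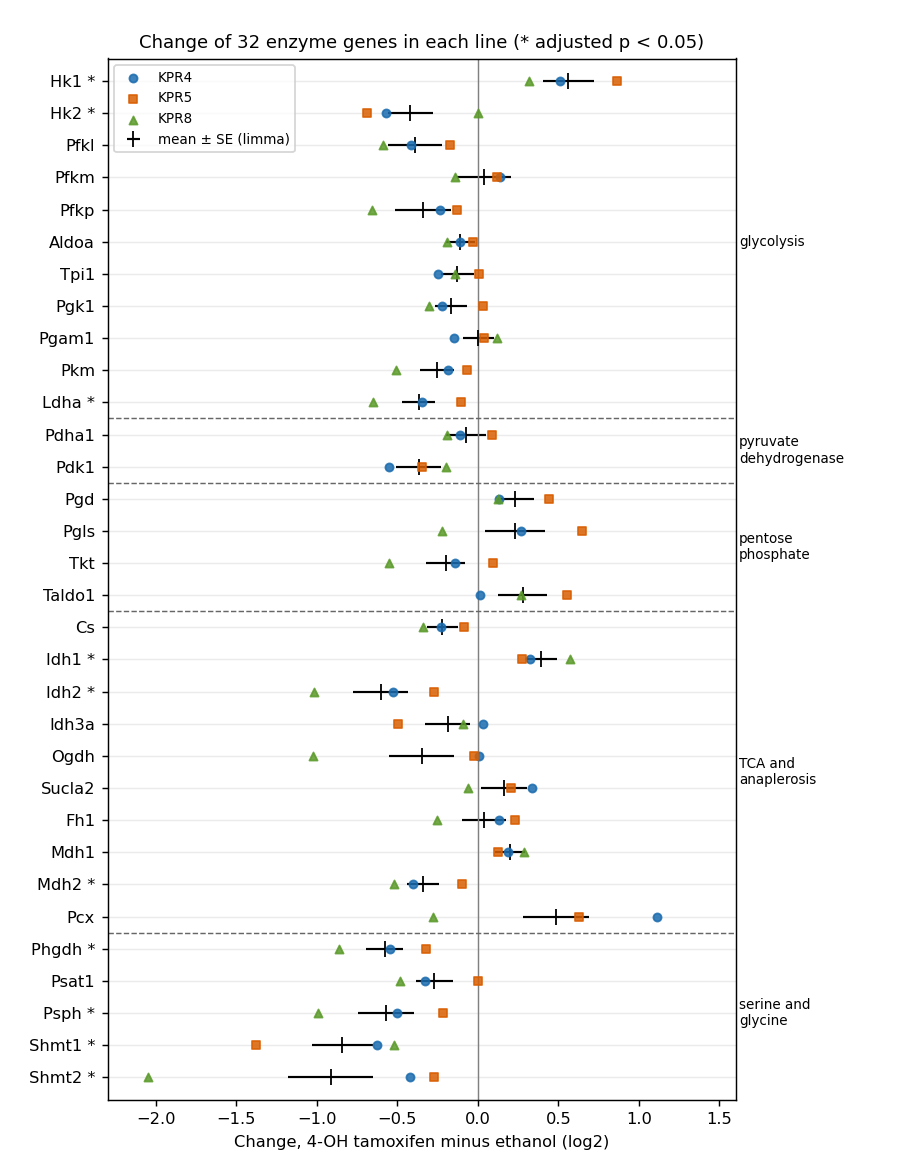
Change of each of the 32 measured genes, tamoxifen minus ethanol on the log2 scale, ordered by pathway; coloured points are the 3 lines and the black mark is the limma mean with its standard error. All 5 serine and glycine genes lie left of 0 in every line, Psat1 in KPR5 barely so, and KPR8 has the lowest change in 23 of the 32 rows.

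Because the serine genes moved in the same direction, the 250 bases before the RefSeq transcript start of each are shown first, with those of Mthfd2, the mitochondrial folate enzyme that follows SHMT2 in the 1-carbon pathway. Each was searched on both strands for CCAAT (the NF-Y box, read as ATTGG on the other strand), TGATGNAA (the CARE bound by ATF4), CACGTG (the E-box), TTTGAA (the CHR of cell cycle genes) and the p53 half-site. Capitals mark the matches to the motifs other than the p53 half-site, all of them CCAAT, and no marked motif overlaps another in these 6 stretches. The half-site was not marked. It was in 0 of the 5 serine and glycine genes, and its result for Mthfd2 is not given. The sequences run 5′ to 3′ on the minus strand of GRCm38.p6, at chr3:98339970-98340219 (Phgdh), chr19:15925060-15925309 (the first of 2 Psat1 starts), chr5:129787254-129787503 (Psph), chr11:60811266-60811515 (Shmt1), chr10:127522445-127522694 (Shmt2) and chr6:83317605-83317854 (Mthfd2).
Phgdh: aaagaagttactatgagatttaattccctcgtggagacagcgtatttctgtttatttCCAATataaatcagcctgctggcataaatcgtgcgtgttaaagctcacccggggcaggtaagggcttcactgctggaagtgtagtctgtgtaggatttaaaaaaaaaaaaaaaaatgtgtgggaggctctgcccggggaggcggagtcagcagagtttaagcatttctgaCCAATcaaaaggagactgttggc
Psat1: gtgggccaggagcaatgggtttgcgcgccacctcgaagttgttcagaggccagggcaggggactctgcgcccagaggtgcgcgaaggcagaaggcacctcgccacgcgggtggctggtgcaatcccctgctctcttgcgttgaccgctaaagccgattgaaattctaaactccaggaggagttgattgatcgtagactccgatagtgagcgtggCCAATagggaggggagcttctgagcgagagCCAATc
Psph: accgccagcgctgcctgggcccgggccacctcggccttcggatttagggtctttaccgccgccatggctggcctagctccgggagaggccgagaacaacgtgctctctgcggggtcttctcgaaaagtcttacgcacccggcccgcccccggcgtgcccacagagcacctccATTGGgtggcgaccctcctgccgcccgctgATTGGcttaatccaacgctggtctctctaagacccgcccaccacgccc
Shmt1: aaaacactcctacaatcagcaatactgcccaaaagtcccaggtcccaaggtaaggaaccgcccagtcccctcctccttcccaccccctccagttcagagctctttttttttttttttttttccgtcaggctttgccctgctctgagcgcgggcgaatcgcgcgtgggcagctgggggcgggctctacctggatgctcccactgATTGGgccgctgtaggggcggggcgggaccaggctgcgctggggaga
Shmt2: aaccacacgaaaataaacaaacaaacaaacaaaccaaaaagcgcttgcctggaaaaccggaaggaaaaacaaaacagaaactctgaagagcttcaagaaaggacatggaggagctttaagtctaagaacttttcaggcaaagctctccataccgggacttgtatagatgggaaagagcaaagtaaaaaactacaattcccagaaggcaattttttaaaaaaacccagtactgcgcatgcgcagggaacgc
Mthfd2: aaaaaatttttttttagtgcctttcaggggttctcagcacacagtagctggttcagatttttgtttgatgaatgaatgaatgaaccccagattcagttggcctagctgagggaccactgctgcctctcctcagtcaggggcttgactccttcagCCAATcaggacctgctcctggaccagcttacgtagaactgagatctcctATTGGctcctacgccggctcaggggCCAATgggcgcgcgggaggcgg

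CCAAT began 23 and 193 bases before the start of Phgdh, 6 and 36 before the first start of Psat1, 48 and 78 before Psph, 47 before Shmt1, and 22, 47 and 96 before Mthfd2. Thus 4 of the 5 serine and glycine genes held it within 250 bases, and the Shmt2 stretch and the second Psat1 start did not. Of the 32851 mouse RefSeq promoter windows of this length that were searched, which did not cover every chromosome, 33.9% held CCAAT. The motif was also in 6 of the 14 glycolysis genes and 3 of the 6 pentose phosphate genes. It was in 7 of the 9 TCA genes with a promoter among those searched, including Idh1, which rose. A gene was counted if any of its starts had a match, while the shares of the windows searched count each start. Counts and shares are therefore not in the same unit. TGATGNAA was in 0 of the promoters searched for these 38 genes, against 3.45% of the windows searched. CACGTG (6.02% of these windows) was in Ldha, Pfkm, Ogdh and Pcx, TTTGAA (16.0%) in Gapdh, Pfkm and Fh1, and the p53 half-site (7.13%) in Pgam1 and G6pdx. Of the 10 called genes, 6 held CCAAT: Hk2, Idh1, Idh2, Phgdh, Psph and Shmt1. A match describes these letters in this window and is not evidence of binding.

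Phgdh, whose enzyme commits 3-phosphoglycerate to serine synthesis, read 11.56, 12.09 and 11.84 with ethanol in KPR4, KPR5 and KPR8, and 11.01, 11.76 and 10.98 with 4-OH tamoxifen. The drug array was below the ethanol array in each line, while the groups overlapped because KPR5 was high under both treatments. The change was -0.58 ± 0.11 (SE, n = 3 lines, limma, adjusted p = 0.0024), and the level fell by 33.1%. The call held when each line was left out in turn. Its 3 dimmer probe sets gave -0.49, -0.38 and -0.35, and all 4 are of the x_at type, which can bind related transcripts.

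Psat1, encoding the aminotransferase of the next step, read 11.20, 11.72 and 11.86 with ethanol and 10.88, 11.72 and 11.38 with the drug. KPR5 was the same under both treatments, and the mean change was -0.27 ± 0.11 (95% interval -0.51 to -0.03, limma, adjusted p = 0.107). Its other probe set, not of the x_at or s_at type, changed by -1.14, -0.29 and -1.07 in the 3 lines, on average -0.84. With that probe set in its place the limma adjusted p was 0.0013, and with the mean of both probe sets it was 0.011 for a change of -0.55. Psat1 was therefore not called or called depending on the probe set, with a negative change in either.

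Psph, encoding the phosphatase that releases serine, read 7.48, 8.29 and 8.52 with ethanol and 6.98, 8.07 and 7.53 with the drug. It was lower with the drug in each line, least in KPR5, and the groups overlapped. The change was -0.57 ± 0.17 (limma, adjusted p = 0.032), so the level fell by 32.7%. The call ended without KPR4 (-0.61, adjusted p = 0.0598), without KPR8 (-0.36, adjusted p = 0.204) and without the expression filter (adjusted p = 0.0611).

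Shmt1, encoding the cytosolic serine hydroxymethyltransferase, read 6.09, 6.76 and 6.41 with ethanol and 5.46, 5.39 and 5.89 with the drug. All 3 drug arrays were below all 3 ethanol arrays. The change was -0.84 ± 0.19 (limma, adjusted p = 0.006), so the level fell by 44.2%, and KPR5 had the largest fall, by 1.38. Without KPR5 it was -0.58 (adjusted p = 0.0788). Of its 3 dimmer probe sets, those at -1.19 and -0.69 fell in every line, and the one at -0.08 moved by 0.36, -0.19 and -0.40 in KPR4, KPR5 and KPR8.

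Shmt2, encoding the mitochondrial enzyme, read 6.85, 8.04 and 8.58 with ethanol and 6.43, 7.77 and 6.53 with the drug. The KPR8 array with drug was far below its control, a change of -2.05 against -0.42 in KPR4 and -0.27 in KPR5. The mean change was -0.91 ± 0.26 (limma, adjusted p = 0.024), so the level fell by 47.0%. Without KPR8 it was -0.35 (adjusted p = 0.217), and without the expression filter the adjusted p was 0.055. Its 3 dimmer probe sets changed by -0.66, -0.55 and -0.50, with KPR8 at -0.90, -0.84 and -0.79, so the size seen in KPR8 depended on the probe set and its direction did not.

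The median change of the 5 genes was -0.50 in KPR4, -0.27 in KPR5 and -0.87 in KPR8, where all genes tested had medians of 0.01, 0.03 and -0.04. Without KPR8 the median was -0.36 and 2 of the 5 remained called. A measure of RNA integrity, the signal of the Gapdh control at the 3′ end minus that at the 5′ end, moved with treatment by 0.24, 0.29 and -0.40 in the order KPR4, KPR5, KPR8. For Actb the same measure moved by 0.16, 0.39 and -0.07. The part of this movement in the serine result was not tested.

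**Figure D2:**
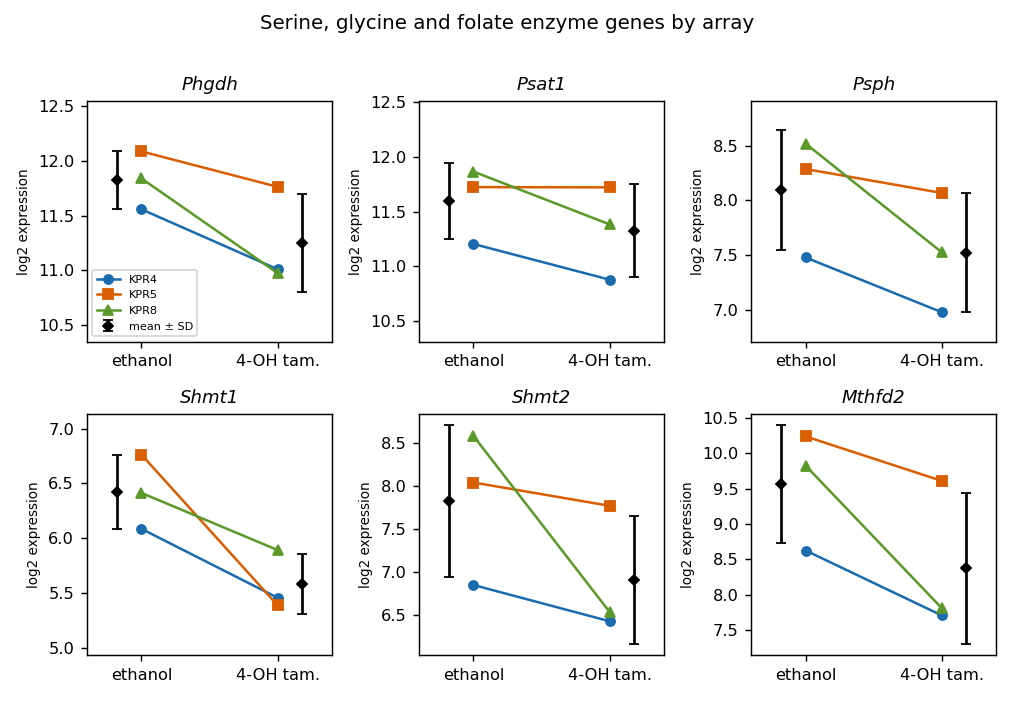
Log2 expression on each array for the 5 serine and glycine genes and Mthfd2; lines join the ethanol and tamoxifen array of a cell line, and diamonds give the mean with its SD over 3 arrays. KPR4 is lowest with ethanol in all 6 panels, and the drop of KPR8 is the steepest in every panel but that of Shmt1.

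Glycolysis had no common direction of called change: Hk1 rose, Hk2 and Ldha fell, and 8 of 11 measured genes were not called. Its median change was -0.17, or -0.26 without KPR5, -0.12 without KPR8 and -0.14 without KPR4. Hk1 and Hk2 encode the hexokinases that trap glucose in the cell, HK1 being the broadly expressed form and HK2 the one often raised in tumours. Hk1 read 8.08, 7.83 and 8.00 with ethanol and 8.59, 8.69 and 8.32 with the drug, and every drug array was above every ethanol array. It rose by 0.56 ± 0.16 (limma, adjusted p = 0.022), or 47.6%. A dimmer Hk1 probe set changed by 0.11 with KPR4 and KPR5 slightly below 0, and the call ended with the mean of both probe sets (0.34, adjusted p = 0.119), without KPR4 (0.59, adjusted p = 0.0671) and without KPR5 (0.41, adjusted p = 0.176).

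Hk2 read 10.65, 10.78 and 10.20 with ethanol and 10.07, 10.10 and 10.20 with the drug. It was lower with the drug in KPR4 and KPR5 and equal in KPR8, and the groups met at the KPR8 value. The change was -0.42 ± 0.14 (limma, adjusted p = 0.048), so the level fell by 25.3%. This is the call closest to the threshold: it ended without KPR4 (-0.34, adjusted p = 0.237) or KPR5 (-0.29, adjusted p = 0.287). It also ended in 5 settings that hardly moved the estimate, with adjusted p of 0.0506 to 0.106. Without the line term the estimate was the same and the limma adjusted p was 0.524. Without KPR8 the change was -0.63 (adjusted p = 0.017). The opposite calls of Hk1 and Hk2 compare each gene with itself, and their levels cannot be set against each other.

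Ldha, encoding the main subunit of the lactate dehydrogenase that makes lactate, read 12.65, 12.83 and 12.54 with ethanol and 12.30, 12.72 and 11.89 with the drug. It was lower with the drug in each line, by 0.35, 0.11 and 0.65, and the groups overlapped through KPR5. The change was -0.37 ± 0.10 (limma, adjusted p = 0.021), so the level fell by 22.6%. Without KPR8 it was -0.23 (adjusted p = 0.135), without KPR4 -0.38 (adjusted p = 0.0544), and without the variance trend the adjusted p was 0.123.

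The 3 phosphofructokinase genes, for the rate-limiting step of glycolysis, were not called. Pfkl, the liver-type subunit, read 7.07, 7.17 and 7.01 with ethanol and 6.65, 7.00 and 6.42 with the drug. Its groups did not overlap, as was so for 4 of the 32 genes (12.5%; Hk1, Idh2 and Shmt1 besides) and for 15.7% of all genes tested. The change was -0.39 ± 0.17 (95% interval -0.75 to -0.03, limma, adjusted p = 0.116). Pfkp, the platelet-type subunit, changed by -0.34 (interval -0.71 to 0.03; -0.18 without KPR8) and Pfkm, the muscle-type subunit, by 0.04 (interval -0.32 to 0.39).

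The bright tested genes of the lower pathway moved little. Aldoa (aldolase), Tpi1 (triosephosphate isomerase) and Pgk1 (phosphoglycerate kinase) changed by -0.11, -0.13 and -0.17. Pgam1 (phosphoglycerate mutase) changed by 0.00 (interval -0.20 to 0.21), and Pkm (pyruvate kinase) by -0.25 (interval -0.48 to -0.03), with adjusted p from 0.101 for Pkm to 0.992 for Pgam1 in limma. The intervals of Aldoa, Tpi1 and Pgk1 included 0. Pkm changed by -0.19, -0.07 and -0.51 in the 3 lines, and by -0.13 without KPR8. Dimmer probe sets of Pgk1 gave the opposite sign, 0.13 and 0.27. For Gpi1 and Eno1 the annotation had no probe set with that symbol alone, and they were not analysed here. Gapdh was represented by array control probe sets alone and was left out of the tested genes. Its 3′ control read 12.86, 13.00 and 12.84 with ethanol and 12.69, 13.00 and 12.28 with the drug, a change of -0.25 ± 0.10 (limma with this probe set added, adjusted p = 0.106), to which KPR8 gave -0.57. The other Gapdh controls, not tested, were lower with the drug in each line. In KPR4, KPR5 and KPR8 the middle control changed by -0.57, -0.28 and -0.54, and the 5′ control by -0.41, -0.29 and -0.17.

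**Figure D3:**
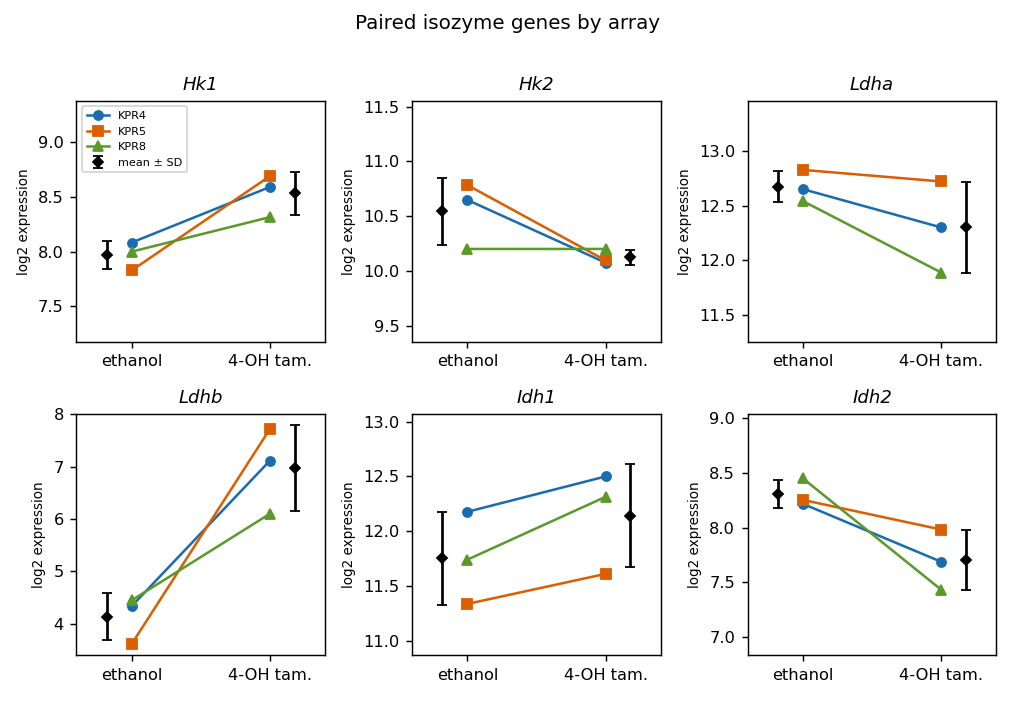
Log2 expression on each array for the isozyme genes Hk1 and Hk2, Ldha and Ldhb, and Idh1 and Idh2; lines join the ethanol and tamoxifen array of a cell line, and diamonds give the mean with its SD over 3 arrays. In each pair 1 gene was called higher and the other lower; each panel has its own scale, so levels cannot be compared between panels.

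At the pyruvate dehydrogenase step 0 of 2 genes were called in limma, with 1 below an unadjusted p of 0.05. Pdk1, the kinase that shuts the complex off, read 9.79, 9.15 and 9.10 with ethanol and 9.24, 8.80 and 8.90 with the drug. It was lower with the drug in each line, at -0.37 ± 0.14 (95% interval -0.66 to -0.07, limma, adjusted p = 0.079), while its other probe set gave -0.01. Pdha1, a subunit of the complex, changed by -0.07 (interval -0.34 to 0.19), and by -0.32 on its other probe set.

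The pentose phosphate genes had the only positive median of the 5 pathways, 0.23, with 0 of 4 called in limma and 0 at an unadjusted p under 0.05. Pgd, of the oxidative branch that yields NADPH, changed by 0.13, 0.44 and 0.12 in KPR4, KPR5 and KPR8 (mean 0.23, interval -0.01 to 0.48). Pgls, the lactonase before it, changed by 0.27, 0.64 and -0.22. In the branch that links the pathway back to glycolysis, Taldo1 (transaldolase) changed by 0.01, 0.56 and 0.27 and Tkt (transketolase) by -0.14, 0.09 and -0.55. KPR5 had the highest value in each of the 4 genes, and its pathway median of 0.50 stood against 0.07 in KPR4 and -0.05 in KPR8; without KPR5 the median of the 4 genes was 0.07. G6pdx, for the entry enzyme, and Tigar, a p53 target that lowers glycolytic flux, had no probe set with their symbol alone and were not analysed here.

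In the TCA cycle and anaplerosis, 2 of 10 measured genes fell, 1 rose and 7 were not called, with a median change of -0.08. The isocitrate dehydrogenases that make NADPH were called in opposite directions. Idh1, the cytosolic form, read 12.18, 11.34 and 11.74 with ethanol and 12.50, 11.61 and 12.31 with the drug, higher in each line but overlapping because KPR5 was low under both treatments. It rose by 0.39 ± 0.10 (limma, adjusted p = 0.012), or 31.1%, and by 0.29 on its other probe set. The call ended without KPR4 (0.42, adjusted p = 0.0509), without KPR8 (0.30, adjusted p = 0.0648) and without the variance trend (adjusted p = 0.0838).

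Idh2, the mitochondrial form, read 8.22, 8.25 and 8.45 with ethanol and 7.69, 7.98 and 7.43 with the drug, and all drug arrays were below all ethanol arrays. The change was -0.60 ± 0.17 (limma, adjusted p = 0.022), so the level fell by 34.2%, and -0.40 (adjusted p = 0.153) without KPR8. Mdh2, the malate dehydrogenase of mitochondria, read 12.25, 12.39 and 12.51 with ethanol and 11.85, 12.29 and 11.99 with the drug. It was lower in each line with overlapping groups, at -0.34 ± 0.10 (limma, adjusted p = 0.028), so the level fell by 21.0%. Its other probe set gave 0.04, and the call ended with the mean of both (-0.15, adjusted p = 0.257), without KPR4 (-0.31, adjusted p = 0.153), without KPR8 (-0.25, adjusted p = 0.142) and without the variance trend (adjusted p = 0.137). Mdh1, its cytosolic counterpart, was not called, at 0.20 (interval 0.00 to 0.40), with -0.26 on another probe set.

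The other cycle enzymes were not called. Cs (citrate synthase) changed by -0.22 and Idh3a, of the NAD-linked isocitrate dehydrogenase, by -0.19. The Idh3a value came mainly from KPR5 (-0.50, against 0.03 in KPR4 and -0.09 in KPR8) and was -0.03 without that line. The 2 dimmer probe sets of Idh3a gave larger mean falls, at -0.49 and -0.29. Ogdh, of the oxoglutarate dehydrogenase complex, was level in KPR4 (0.01) and KPR5 (-0.03) and changed by -1.03 in KPR8 (mean -0.35, interval -0.78 to 0.08), so that its movement came from 1 line. Sucla2 (succinyl-CoA ligase) changed by 0.16 and Fh1 (fumarase) by 0.04. Pcx, for the pyruvate carboxylase that refills the cycle, was dim, at 4.01, 3.38 and 3.39 with ethanol and 5.12, 4.01 and 3.11 with the drug, and it passed the filter on 3 arrays. It was higher with the drug in KPR4 and KPR5 and lower in KPR8, at 0.49 ± 0.20 (interval 0.05 to 0.92, limma, adjusted p = 0.108), and without KPR8 it was called (0.87, adjusted p = 0.0277). Leaving out KPR4 gave 0.17 (adjusted p = 0.641), and leaving out KPR5 gave 0.41 (adjusted p = 0.264). A 3′ array control for pyruvate carboxylase, also dim (mean 3.53 with ethanol and 4.00 with the drug), moved by 0.76, 0.49 and 0.14. The 5′ control of this transcript had a mean change of 0.04 and the middle controls 0.00 and -0.01, all from lower levels. The median of the 10 genes was 0.08, 0.05 and -0.27 in the 3 lines, and it was 0.07 without KPR8. Gls2, the glutaminase known as a p53 target, had no probe set with its symbol alone and was not analysed here.

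The size of the change in each line is given here as a description, with no test. KPR8 had the lowest change of the 3 lines in 23 of 32 genes (71.9%), and in 42.6% of all genes tested. KPR5 had the highest change in 21 of the 32 (65.6%), against 40.2% of all genes. The median over the 32 genes was -0.17 in KPR4, -0.01 in KPR5 and -0.27 in KPR8, with 20, 17 and 25 genes below 0 (62.5%, 53.1% and 78.1%, against 48.8%, 46.4% and 54.0% of all genes tested). Of the 32, 14 (43.8%) were lower in every line, 5 (15.6%) higher in every line and 13 (40.6%) mixed. Among all genes tested these shares were 25.7%, 26.0% and 48.3%. KPR8 was also the line in which the 3′-minus-5′ signals of the controls moved the other way, as given above, and the part of this in its lower values was not tested.

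The level of the genes also differed between lines irrespective of treatment: 13 of 32 (40.6%) passed limma's F-test for the line, close to the 42.0% of all genes tested. Pfkm was highest in KPR4 and lowest in KPR8, with line means 1.26 apart (adjusted p = 0.00076), while Pfkp was highest in KPR5 and 0.70 lower in KPR4 (adjusted p = 0.026). Idh1 was highest in KPR4, 0.87 above KPR5 (adjusted p = 0.00021). Of the serine and glycine genes, Phgdh, Psat1, Psph and Shmt2 differed, each with KPR4 lowest and KPR5 highest, by 0.64, 0.68, 0.95 and 1.27 (adjusted p from 0.0024 to 0.014). Aldoa, Ldha, Pdk1, Pgls, Tkt and Pcx were the others that passed.

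Several probe sets of a gene gave a second reading of these changes. Of the 32 genes, 14 had 1 probe set past the filter and 18 had several, and in 3 of the 18 (Mdh1, Mdh2 and Pgk1) at least 1 other probe set had the opposite sign. Among the serine and glycine genes with several, all other probe sets had a negative mean change, from -1.19 to -0.08. Probe sets of a gene share the same RNA and are not replicates.

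**Figure D4:**
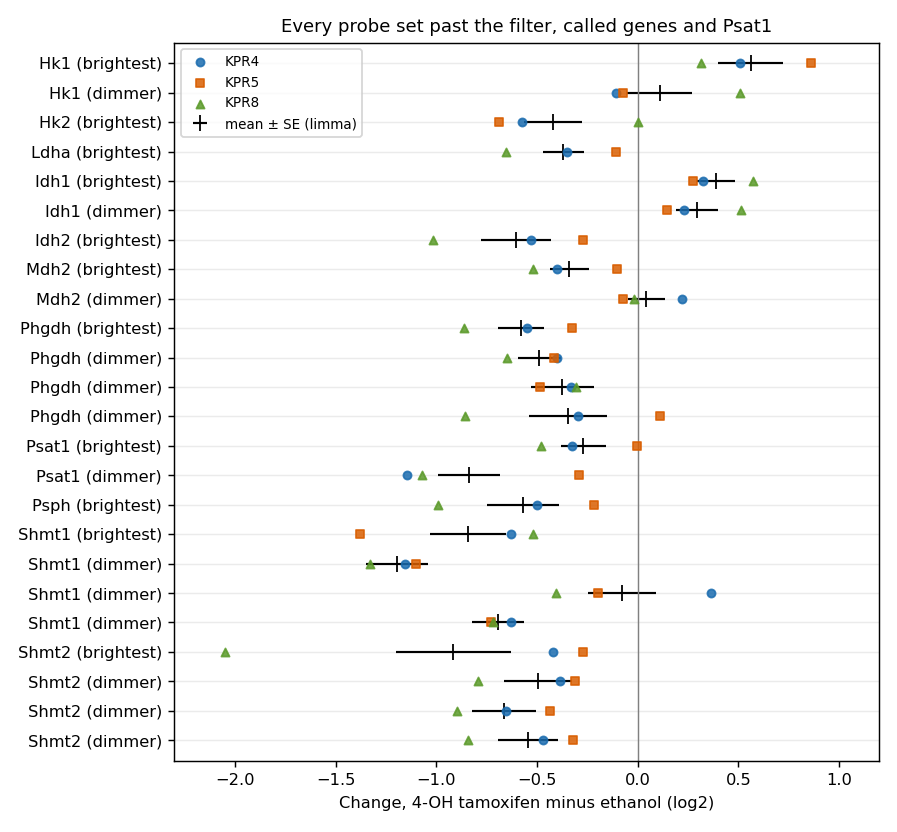
Change of every probe set past the filter for the 10 called genes and Psat1, tamoxifen minus ethanol on the log2 scale; coloured points are the 3 lines and black marks the limma mean with its standard error. The dimmer probe sets of Phgdh, Psat1, Shmt1 and Shmt2 have means left of 0, while those of Hk1 and Mdh2 lie near 0.

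Other genes of the same pathways together with metabolic genes linked to p53, 116 in number with 75 tested, had 9 higher and 11 lower (26.7% called). The median change of the 75 genes was -0.10. In glycolysis and glucose or lactate transport, 2 of 15 rose and 4 fell. Ldhb, the lactate dehydrogenase subunit that favours pyruvate formation, read 4.34, 3.62 and 4.45 with ethanol and 7.11, 7.72 and 6.10 with the drug. It rose by 2.84 ± 0.31 (limma, adjusted p = 1.5e-05), about 7.17-fold from a level not far above background, and by 1.37 to 2.15 on its other probe sets. Eno2, an enolase, rose by 0.73 (0.50 without KPR8, adjusted p = 0.0928). The lactate carriers Slc16a1 and Slc16a3 fell by 0.52 and 0.62, and Pgp, a phosphatase of glycolytic by-products, by 0.69. Those calls ended without KPR5 for Slc16a1 (adjusted p = 0.119), without KPR4 or KPR5 for Slc16a3 (0.114 and 0.0628) and without KPR8 for Pgp (0.0772). Slc16a3 was dim, at 4.06, 5.48 and 2.91 with ethanol and 3.15, 4.64 and 2.80 with the drug. In KPR8 it was close to the Bacillus controls under both treatments. The glucose carrier gene Slc2a1 changed by 0.17 (adjusted p = 0.249).

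In the 1-carbon and glycine list, which extends the serine genes, 3 of 17 fell and 1 rose, with a median of -0.23. Mthfd2, whose promoter is shown above, read 8.63, 10.24 and 9.83 with ethanol and 7.71, 9.61 and 7.81 with the drug. It was lower in each line, by 0.92, 0.63 and 2.02, and the groups overlapped. The change was -1.19 ± 0.21 (limma, adjusted p = 0.00099), and -1.31 on its other probe set, and the call held when each line was left out. Slc19a1, a folate carrier, fell by 0.67 and Asns, asparagine synthetase, by 0.60. The latter was -0.24 (adjusted p = 0.297) without KPR8, and the former lost its call without KPR5 (adjusted p = 0.123) or KPR8 (0.106). Cbs, which starts the use of serine for cysteine, rose by 0.70, of which KPR5 gave 1.52 and KPR8 0.01. Without KPR5 it was 0.29 (adjusted p = 0.406), and its probe set not of the s_at type gave 0.14.

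In the pentose phosphate and ribose list 2 of 8 rose and 1 fell. Rpe, an epimerase of the non-oxidative branch, rose by 0.68, and of the ribose-phosphate pyrophosphokinases Prps2 rose by 0.67 and Prps1 fell by 0.57. All 3 lost their calls without KPR4, at adjusted p of 0.0524, 0.0901 and 0.0822, and Prps2 also without KPR8 (0.0732). Of the 6 genes of pyruvate dehydrogenase and the pyruvate carrier 0 were called by limma, and 0 had an unadjusted p under 0.05. Of 23 genes of the TCA cycle, glutamine and citrate use, 1 rose and 3 fell. Aco1, the cytosolic aconitase, rose by 0.68, but by 0.18 (adjusted p = 0.446) on a probe set not of the x_at type. Pck2, Got1 and Slc1a5, for mitochondrial PEP carboxykinase, aspartate aminotransferase and a glutamine carrier, fell by 0.76, 0.69 and 0.57. Pck2 was -0.43 (adjusted p = 0.256) without KPR8, Got1 had an adjusted p of 0.0767 without KPR5, and Slc1a5 lost its call without any 1 line (adjusted p of 0.0531 to 0.123).

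Metabolic genes with a known link to p53, a list in which 9 of 19 could be tested, had 3 higher and 1 lower. Acad11, an acyl-CoA dehydrogenase, read 5.06, 3.47 and 3.70 with ethanol and 7.11, 5.52 and 4.99 with the drug, higher in each line. It rose by 1.79 ± 0.18 (limma, adjusted p = 8.8e-06). Lpin1, which acts in lipid synthesis and fat oxidation, rose by 1.45 ± 0.18 (adjusted p = 5.5e-05), and both calls held when each line was left out. Ddit4, an inhibitor of mTORC1, rose by 0.39, or 0.24 without KPR5 (adjusted p = 0.204), and the gene that fell was Slc16a1, also counted above.

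**Figure D5:**
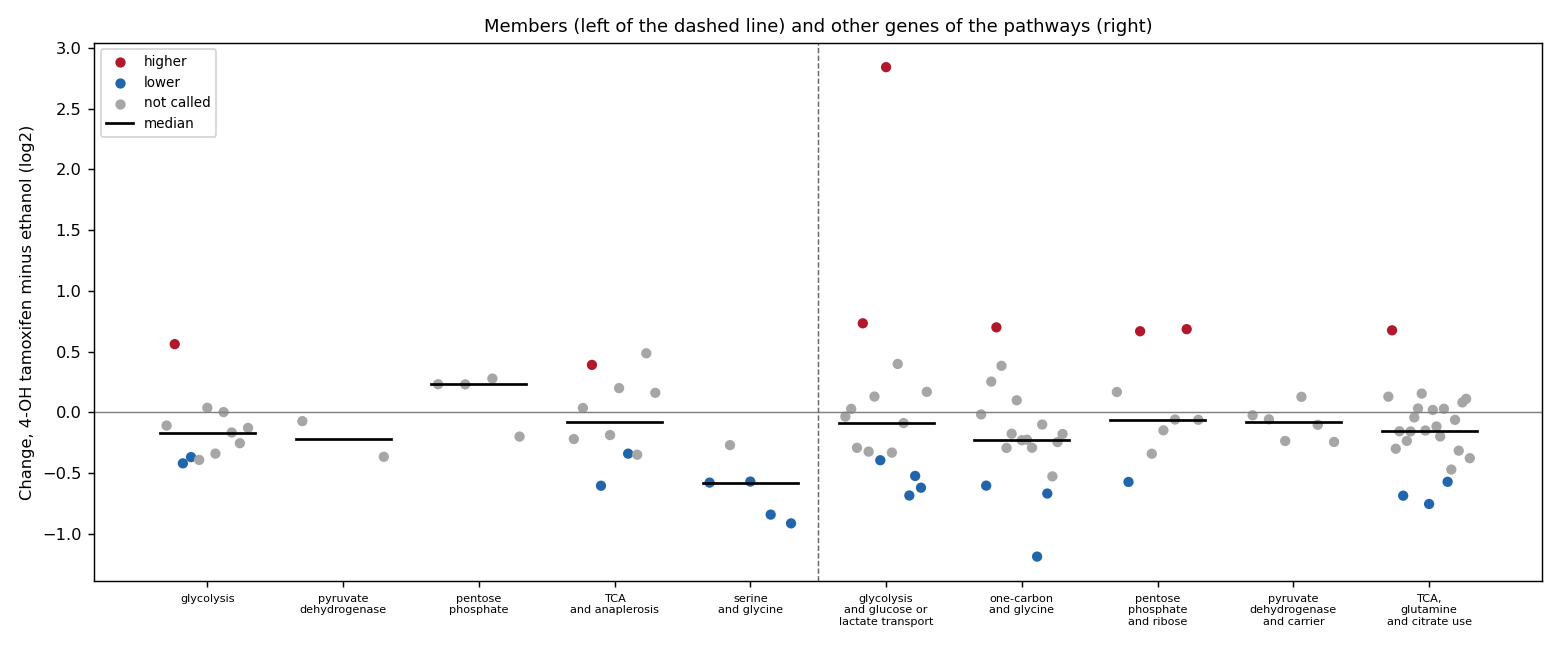
Change of each tested gene, tamoxifen minus ethanol on the log2 scale, for the 5 pathways (left of the dashed line) and the other genes of the same pathways (right); red and blue points were called higher and lower by limma, grey points were not called, and bars are medians. The serine and glycine bar is at -0.58, the lowest of the 10, and Ldhb is the single point near 2.84.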

How the data were processed

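Total RNA was extracted with Trizol and biotin-labelled cDNA was prepared from it with the Nugen Ovation kit, per the labels' protocols. The authors deposited log2 values for each probe set. The submitters' processing notes name GCRMA 2.20.0 and R 2.11.0. The sources used here do not give whether other arrays entered that step, and because it equalises the arrays, a shift of most genes in 1 direction would not be seen.

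Of 22690 probe sets, 64 array controls and 691 with several symbols were left out, and 20380 had 1 symbol in GEO's platform annotation. Probe sets reaching log2 4 on 3 or more of the 6 arrays were kept, and the brightest by mean stood for its gene. Changes were fitted with limma 3.58.1 (R 4.3.3; lmFit and eBayes with a trend, 2 residual and 12.9 prior degrees of freedom) with terms for line and treatment. All p-values are 2-sided, with Benjamini-Hochberg adjustment over the 7644 genes and a threshold of 0.05. Lines were compared by limma's F-test in the same model. Standard errors and 95% intervals use the moderated variance.

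The line term follows from the labels, in which each line has both treatments, and the 2 arrays of a line deviated together from their group means (correlation over genes 0.876 for KPR4, 0.737 for KPR5, 0.761 for KPR8). On simulated data with these genes and this design, limma recovered 10% of genes changed by log2 0.3, 34% at 0.5 and 98% at 1. Each size was given to 50 genes, by the same amount in every line. These are far fewer changed genes than the 1488 called in the data, so recovery in the real data can differ. The number of arrays limits the precision.

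The genes and lists were chosen with earlier results of these data known. The rule for naming took every member, the 3 largest rises and 3 largest falls past the threshold in each other list, and 3 p53 targets as a check. Alternatives were no filter or a stricter one at log2 6, averaging the probe sets of a gene, no line term, quantile normalization, no variance trend and leaving out each line. Chosen after seeing the data were preferring probe sets without the suffix x_at or s_at, and adding the 3′ Gapdh control. Promoter windows came from RefSeq (GRCm38.p6). Those searched did not cover every chromosome and held 36 of the 38 genes.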

Additional observations from a re-analysis of the deposited data

Results flagged for a closer look

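In 3 of the 32 genes, lines moved in opposite directions by at least 0.2 on the log2 scale. Pgls changed by 0.64 in KPR5 and -0.22 in KPR8. Fh1 changed by 0.23 in KPR5 and -0.25 in KPR8. Pcx changed by 1.11 in KPR4 and -0.28 in KPR8, from values that were dim in every line. Each value rests on 1 array per treatment, and these differences between lines were not tested.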

How the results depend on the processing

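Without the replicate block for the line, limma called 22 genes higher and 1 lower in all, against 805 and 683, and 0 of the 32 described genes, with 1 higher and 2 lower at an unadjusted p under 0.05. Leaving out each line in turn gave 525 to 613 genes higher and 420 to 456 lower in all. Among the 32 it gave 0 to 2 higher and 3 to 6 lower (4 without KPR4, 6 without KPR5 and 3 without KPR8), against 2 and 8, and of the serine and glycine genes 2 to 3 lower, against 4. Where 0 were higher, without KPR4, 2 had an unadjusted p under 0.05. Without the filter 5 of the 32 were lower, 2 of them of serine and glycine synthesis. Without the variance trend 1 was higher and 5 were lower, and with the mean of probe sets 1 was higher. Of the 10 calls, 10 remained with the stricter filter and with the Gapdh control added, 9 with quantile normalization and with unique probe sets preferred, 7 with no filter, with the mean of probe sets and without KPR5, 6 without the trend, and 4 without KPR4 or without KPR8. Psat1 was newly called with the mean of probe sets and with unique probe sets preferred, and Pcx without KPR8. No called gene changed direction under any of these settings. The medians of the 5 pathways kept their sign, except that of the TCA cycle, which was 0.07 without KPR8 against -0.08. The cause of these shifts was not tested, beyond the smaller number of arrays when a line is left out.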
